A study of Mus musculus with 6 samples.

Results

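The RBPJ occupancy sites described here are 379 of the 5206 peaks called in asynchronous mouse F9 cells, the interphase peaks. The closest peak called in mitotic F9 cells had its center more than 250 bp and at most 5 kb away on the same chromosome. They were selected on the measured positions in both peak lists, so the presence of a neighbor and its distance are descriptions and not findings. The 379 interphase peaks had 351 different neighboring mitotic peaks, out of the 3227 peaks of the mitotic list. A further 425 interphase peaks had a mitotic center within 250 bp, and 4402 had none within 5 kb.

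F9 is an established mouse embryonal carcinoma line derived from a testicular teratoma, so the data come from 1 cell line. The asynchronous culture was not arrested and held 95% interphase and 5% mitotic cells per the labels. The mitotic population was arrested with nocodazole, a drug that blocks spindle assembly. Chromatin from both was precipitated with a custom-made antibody against RBPJ, and 6 libraries were sequenced, of which 2 have a peak list, replicate 1 of each population. Whether reads of both replicates entered a list is not given in the sources used here. The second RBPJ replicates and the input libraries were not analyzed here. With 1 list per population no difference between the populations could be tested, and the drug cannot be told apart from the cell cycle stage. Shares are therefore given side by side with exact Clopper-Pearson 95% intervals, which cover counting error only and not the error between cultures. Peak lists hold no expression values, so the identity of the cells was not checked against marker genes.

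RBPJ is the DNA-binding protein through which Notch signaling acts on its target genes. Without Notch it can hold corepressors at those genes, and the released intracellular part of the Notch receptor turns it into an activator. Most transcription factors leave chromosomes in mitosis, and those that remain on some of their sites are called mitotic bookmarks. A site seen in interphase with a mitotic site a short way off on the same chromosome is a pair of nearby calls, 1 in each list, and does not by itself show that occupancy moved. CTCF is an insulator protein that anchors chromatin loops together with cohesin.

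Only 2 pairs held the RBPJ-binding motif in both peaks, at Hes1 and Ank1, and their 4 sites are shown first because they let both ends of a pair be compared letter by letter. Hes1 encodes a transcriptional repressor and is the best known target of Notch, and Ank1 encodes an ankyrin of the membrane skeleton. Each line gives 30 bases of mm9 from 5′ to 3′ on the strand of the motif, with the motif TTCCCACA or TTCCCACG in capitals. The Hes1 sites lie at chr16:30066452-30066481 on the plus strand and chr16:30065333-30065362 on the minus strand. The Ank1 sites lie at chr8:24084603-24084632 on the plus strand and chr8:24088401-24088430 on the minus strand.
Hes1 interphase peak: ctcactccgcgTTCCCACGgtctgggtctt
Hes1 mitotic peak: ccaaactttctTTCCCACAgtaactttcag
Ank1 interphase peak: ccggttccccgTTCCCACAgtctacgttgg
Ank1 mitotic peak: gaacaagcaccTTCCCACAcagtatcccaa

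The motif stood in the interphase peak alone at 4 pairs with both peaks in promoters, those of Tlcd1, Brpf1, Rras and Gnb2. These sequences are shown because the motif was found at the interphase end only of pairs with both peaks in promoters. Brpf1 encodes a scaffold of a histone acetyltransferase complex, Rras a small GTPase and Gnb2 a beta subunit of G proteins. The sites lie at chr11:77992698-77992727 on the minus strand for Tlcd1 and at chr6:113256247-113256276 on the plus strand for Brpf1. Those of Rras and Gnb2 lie at chr7:52274456-52274485 on the plus strand and at chr5:137974303-137974332 on the minus strand.
Tlcd1 interphase peak: gtaccttgggtTTCCCACAgccgttcttgg
Brpf1 interphase peak: caaagaagaatTTCCCACGatcacacttga
Rras interphase peak: cctccacccagTTCCCACGgggagcctccc
Gnb2 interphase peak: ccagccccaaaTTCCCACGggtgtgtgtgt

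Whole peaks are shown from 2 further pairs that touch no annotated exon. They were chosen after their motifs were seen, as examples of pairs whose peaks held different or like motifs. Their centers are no further apart than the fragment lengths that the paper gives for its sonicated chromatin. Whether both peaks of a pair mark the same region was not tested. Kcnc1 encodes a voltage-gated potassium channel, and its pair lay upstream of the start, with centers 257 bp apart. The interphase peak, chr7:53648610-53648782, held 2 matches to the CTCF consensus, each with 1 mismatch, and no RBPJ motif. The mitotic peak, chr7:53648852-53649054, held the RBPJ motif and no CTCF match. The intergenic pair closest to Krt8, a keratin gene, held 1 CTCF match in each peak, with centers 269 bp apart. The interphase match had no mismatch and lay 52.5 bp from its center, and the mitotic match had 1 mismatch and lay at -90.5 bp. All peaks are printed on the plus strand with the matched letters in capitals, so that a match on the minus strand appears as its reverse complement. The Krt8 peaks lie at chr15:101814811-101814983 (interphase) and chr15:101814527-101814729 (mitotic).
Kcnc1 interphase peak: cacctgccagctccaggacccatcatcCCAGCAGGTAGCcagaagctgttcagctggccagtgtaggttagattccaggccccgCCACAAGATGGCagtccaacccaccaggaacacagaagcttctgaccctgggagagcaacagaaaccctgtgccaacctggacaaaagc
Kcnc1 mitotic peak: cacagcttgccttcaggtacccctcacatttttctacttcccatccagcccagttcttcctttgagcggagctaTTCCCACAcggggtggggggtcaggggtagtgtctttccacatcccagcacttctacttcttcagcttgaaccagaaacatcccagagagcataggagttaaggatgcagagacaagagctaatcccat
Krt8 interphase peak: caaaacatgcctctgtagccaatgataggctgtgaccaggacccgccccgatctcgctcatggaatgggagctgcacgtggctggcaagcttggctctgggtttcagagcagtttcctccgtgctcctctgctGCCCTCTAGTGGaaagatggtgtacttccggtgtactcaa
Krt8 mitotic peak: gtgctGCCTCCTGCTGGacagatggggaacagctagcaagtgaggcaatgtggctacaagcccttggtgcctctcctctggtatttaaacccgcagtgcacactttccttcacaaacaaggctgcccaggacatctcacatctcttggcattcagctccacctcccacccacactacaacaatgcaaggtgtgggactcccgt

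The centers of a pair were a median of 1528 bp apart, with quartiles of 728.5 and 3032 bp and a range of 253 to 4968 bp. Of the 379 pairs, 62 were 250 to 500 bp apart, 75 were 500 bp to 1 kb apart, 90 were 1 to 2 kb apart and 152 were 2 to 5 kb apart. The mitotic peak lay at the higher coordinate in 184 pairs (48.5%, interval 43.4 to 53.7), so neither side of the chromosome dominated. The pairs just inside the lower bound were those at Ndufa9, Map4k1 and Kcnc1 at 253, 256 and 257 bp, and the peaks just outside it, at Kifc3 and Celsr3, had a mitotic center at 248 and 247 bp. At the upper bound the last pairs inside were at 2900026A02Rik and Ttc39a, at 4932 and 4968 bp. The first peaks outside were closest to Gm10000 and Cfdp1, at 5008 and 5013 bp. Neither bound therefore fell in a gap of the distances.

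How many mitotic peaks surrounded an interphase peak at each distance was counted over both whole lists. Mitotic centers numbered 163.3 per 1000 interphase peaks and kb within 250 bp, then 25.4 from 250 to 500 bp, 15.6 from 500 bp to 1 kb and 10.7 from 1 to 2 kb. From 2 to 5 kb the density was 5.63, and it was 6.88 from 5 to 10 kb, 6.11 from 10 to 20 kb and 5.02 from 50 to 100 kb. From 20 to 50 kb it was 5.61. These densities cover all interphase peaks and rest on the same distances that chose the pairs, so they describe the lists and not the members. Mitotic peaks were denser up to 2 kb than further away. The density at 2 to 5 kb was within the range of 5.02 to 6.88 found from 5 to 100 kb. The same order held around interphase peaks in promoters, with 33.1 at 250 to 500 bp, 5.42 at 2 to 5 kb and 6.08 at 10 to 20 kb. Around interphase peaks in introns the density was 12.3 at 1 to 2 kb and 5.12 at 2 to 5 kb, and around intergenic ones it was 26.7 at 250 to 500 bp and 4.45 at 2 to 5 kb. Around those in distal promoters the density at 2 to 5 kb, 10.8, was above the 8.22 at 5 to 10 kb and the 5.87 at 20 to 50 kb.

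**Figure D1:**
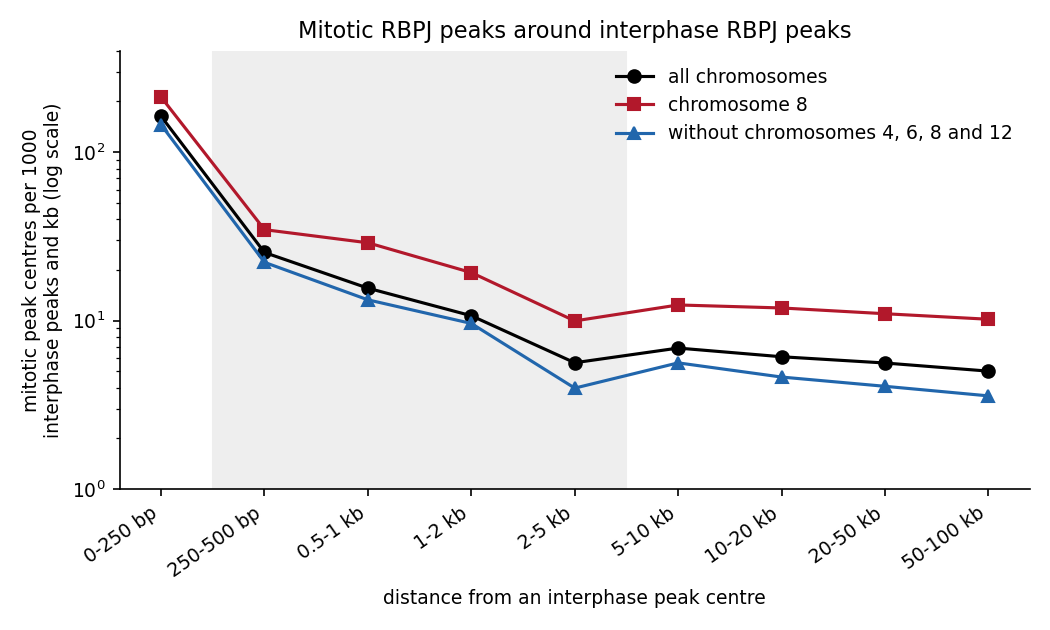
The number of mitotic peak centers per 1000 interphase peaks and kb (log scale) is plotted against the distance from the interphase center, for all chromosomes, for chromosome 8 and without chromosomes 4, 6, 8 and 12, with the distances of the pairs shaded. The density falls from 25.4 at 250 to 500 bp to 5.63 at 2 to 5 kb over all chromosomes, and chromosome 8 lies above the other lines at every distance.

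A neighboring pair need not be a site that moved, because a further peak can lie beside it. In 291 pairs (76.8%, 72.2 to 80.9) both peaks were each other's closest. In 65 pairs (17.2%, 13.5 to 21.3) the mitotic peak lay within 250 bp of another interphase peak, so that it had an interphase counterpart in place and the interphase peak of the pair was an additional site. In the remaining 23 pairs (6.07%) the mitotic peak was closer to another interphase peak that was itself over 250 bp away. Most of the mitotic peaks, 324 of 351, neighbored 1 interphase peak, 26 neighbored 2 and 1 neighbored 3. That one lay 7260 bp downstream of the start of Pdp2, a phosphatase subunit gene, at chr8:107122527-107122729. Its interphase neighbors, 2747, 3311 and 4159 bp away, fell at the transcript end, in an exon and in an intron of the adjacent gene Cdh16, which encodes a cadherin.

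The interphase peaks of the pairs lay in promoters (1 kb before to 100 bp after the start of a transcript) in 132 of 379 cases (34.8%, 30.0 to 39.9), against 31.3% of all interphase peaks. The corresponding shares were 43.3% of those with a mitotic center within 250 bp and 29.8% of those with none within 5 kb. Of the 351 mitotic neighbors 92 lay in promoters (26.2%, 21.7 to 31.1), against 20.4% of all mitotic peaks. Distal promoters (10 kb before a start to 1 kb after it, outside the classes placed first) held 57 interphase peaks (interval 11.6 to 19.0%, against 9.82% of the list) and 49 mitotic neighbors (14.0%, against 8.12%). Introns held 90 interphase peaks (23.7%, against 28.1% of the list) and 98 mitotic neighbors (27.9%, against 34.3%). Intergenic DNA held 66 (17.4%, against 21.6%) and 65 (18.5%, against 26.8%). Exons held 18 (4.75%, against 5.01%) and 27 (7.69%, against 6.29%). Transcript ends held 16 (4.22%, against 4.17%) and 20 (5.70%, against 4.15%).

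Both peaks of the pairs lay nearer to protein-coding genes than their lists as a whole. A protein-coding start lay within 10 kb of 68.1% of the interphase peaks of the pairs, against 57.4% of all interphase peaks, and of 65.2% of the mitotic neighbors, against 47.4% of all mitotic peaks. The median distance to such a start was 3621 bp for the interphase peaks of the pairs, against 6409 bp in the list. For the mitotic neighbors it was 3274 bp, against 11499 bp in the list. The peaks with a center of the other list within 250 bp were also near genes, with 67.5% of them within 10 kb of a start in both lists and medians of 1625 bp (interphase) and 1655 bp (mitotic). Since the mitotic neighbors were required to lie within 5 kb of an interphase peak, their position near genes follows in part from where the interphase peaks lie.

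Both peaks fell in the same class in 226 of 379 pairs (59.6%, 54.5 to 64.6). These comprised 65 pairs within promoters, 59 within introns, 58 in intergenic DNA, 33 in distal promoters, 6 at transcript ends and 5 in exons. Among pairs in different classes the most frequent kind was an interphase peak in a promoter with a mitotic peak in an intron (35 pairs), against 12 pairs with the classes exchanged. Next came an interphase peak in a distal promoter with a mitotic peak in a promoter (14 pairs), against 13 with the classes exchanged. Over the whole lists, promoters held 31.3% of interphase and 20.4% of mitotic peaks, and introns 28.1% and 34.3%. The 35 against 12 pairs go the same way as these shares, and the difference was not tested. No pair joined a promoter peak to an intergenic one, which the classes nearly fix, because the distal promoter class covers the 10 kb before every start.

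**Figure D2:**
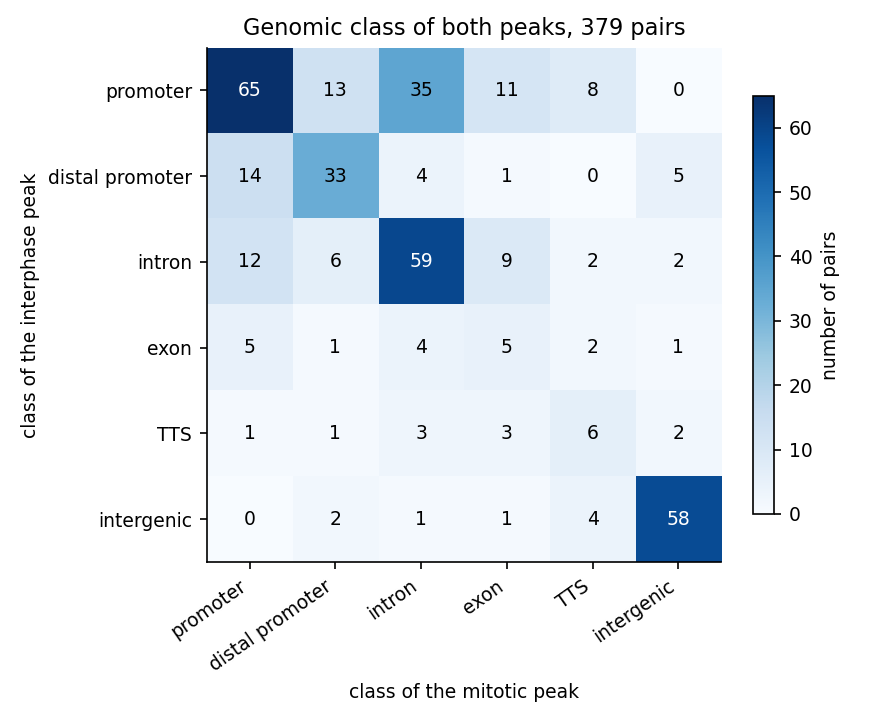
The number of pairs is shown for each class of the interphase peak (rows) and of the mitotic peak (columns), with a deeper blue for more pairs. The diagonal holds 226 of the 379 pairs, and the largest count off the diagonal is the 35 pairs with an interphase peak in a promoter and a mitotic peak in an intron.

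The share in the same class was lower the wider the pairs were, from 87.1% (76.1 to 94.3) at 250 to 500 bp to 68.0% at 500 bp to 1 kb, 56.7% at 1 to 2 kb and 46.1% (37.9 to 54.3) at 2 to 5 kb. Interphase peaks in promoters made up 43.5% of the closest pairs and 29.6% of the widest, and mitotic peaks in promoters 37.1% and 18.4%. The same protein-coding gene, by starts that could differ between the peaks, was closest to both peaks in 348 of 379 pairs (91.8%, 88.6 to 94.4). This share was 88.7% at 250 to 500 bp and 88.8% at 2 to 5 kb. Positions this close together mostly share their closest gene, and the closer they are the more often they share a class. Both shares therefore describe the pairs and are not set against a background.

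**Figure D3:**
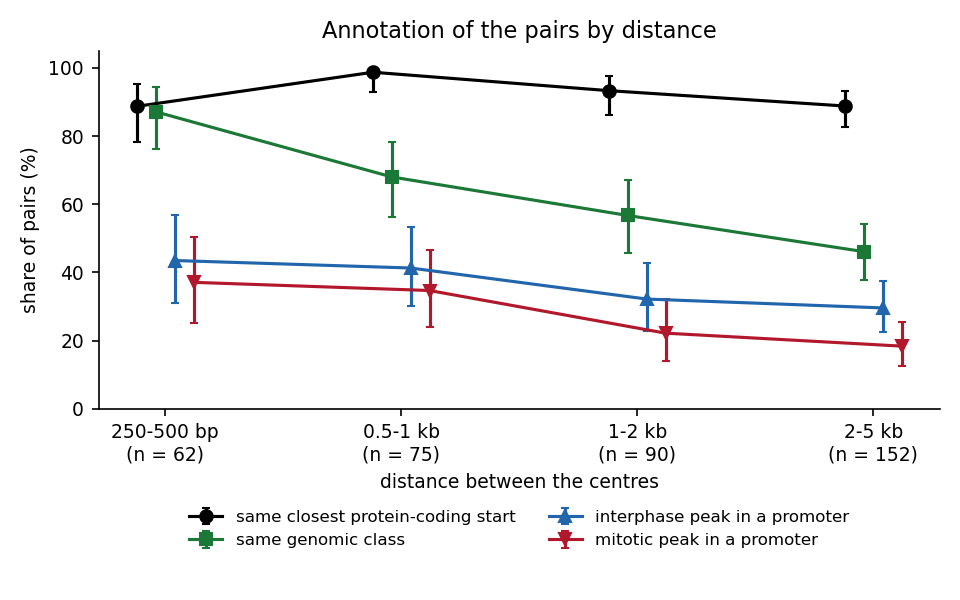
The share of pairs (%) with the same closest protein-coding gene (labeled as the same start), with the same class, with the interphase peak in a promoter and with the mitotic peak in a promoter is plotted for 4 ranges of distance, with exact 95% intervals as bars. The share in the same class runs from 87.1% in the closest pairs to 46.1% in the widest, and the share with the same gene stays between 88.7% and 98.7%.

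Positions were taken from the closest start of each peak, which can be different starts of 1 gene. Among the 348 pairs with the same closest gene, the interphase peak was nearer to its start in 187 (53.7%, 48.3 to 59.1). The mitotic peak had the more downstream position relative to its start in 169 (48.6%, 43.2 to 54.0). Where the starts differ, that position does not give the side along the gene, so no preferred side is read from it. In the 67 pairs with the interphase peak in a promoter and the mitotic peak elsewhere, the mitotic peak lay downstream along the gene of that promoter in 43 (64.2%, 51.5 to 75.5). The promoter window reaches further upstream than downstream of the start, which favors that direction for a neighbor outside it. Over all 132 interphase peaks in promoters the mitotic neighbor was downstream in 65 (49.2%).

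**Figure D4:**
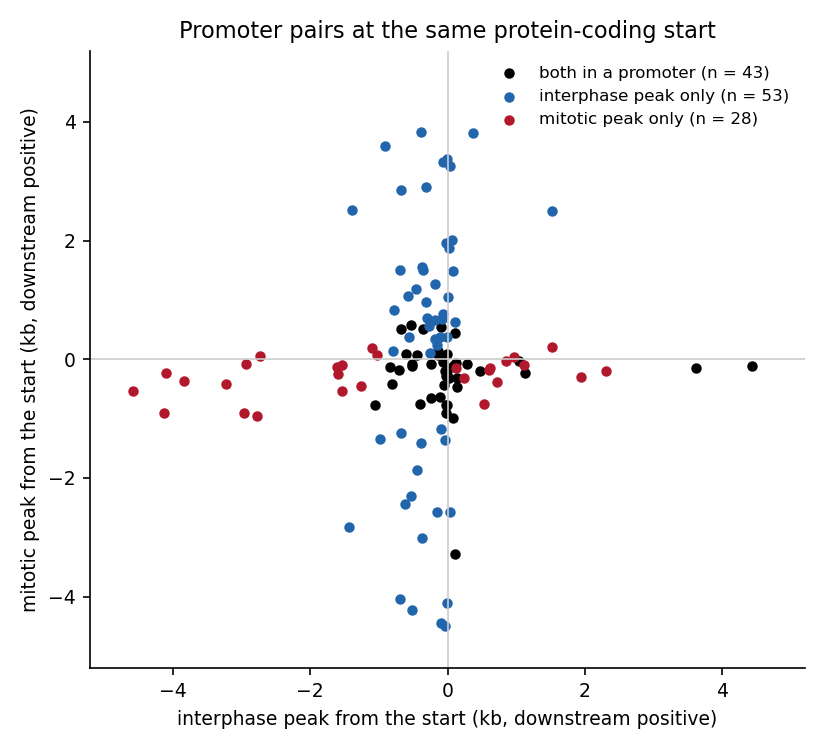
Each point is 1 of 124 pairs with the same closest protein-coding gene, at least 1 peak in a promoter and both peaks within 5 kb of their own closest start. The position of the interphase peak from its start is on the x axis and that of the mitotic peak on the y axis (kb, downstream positive). The 53 pairs with only the interphase peak in a promoter spread along the y axis on both sides of the start, and the 28 with only the mitotic peak in a promoter spread along the x axis.

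The motif searches covered both strands of the peak intervals, 173 bp for each interphase and 203 bp for each mitotic peak. The RBPJ motif was found in 28 of the 379 interphase peaks of the pairs (7.39%, 4.97 to 10.5), against 9.09% of all interphase peaks, 12.5% of those with a mitotic center within 250 bp and 8.91% of those with none within 5 kb. It was found in 13 of the 351 mitotic neighbors (3.70%, 1.99 to 6.25), against 3.53% of all mitotic peaks and 10.8% of the mitotic peaks with an interphase center within 250 bp. Windows of the same length 20 kb to either side held it in 1.19% (interphase) and 2.28% (mitotic) of cases. The interval at each end of the pairs thus included the share of its own list, and both shares were below those of peaks called within 250 bp of each other, a difference that was not tested. The lower share in the mitotic neighbors depended on the letters searched. With TTTCCCAC or TTTCCCAG, which share TTCCCA with the motif, the share was 7.39% in the interphase peaks and 7.98% in the mitotic neighbors, against 10.0% and 5.05% of the lists. With TTCCCA it was 31.7% and 28.2%, against 35.9% and 25.1%.

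A match to the core of the CTCF consensus, 12 bases with at most 1 mismatch, was found in 69 of the 379 interphase peaks of the pairs (18.2%, 14.5 to 22.5), against 18.0% of all interphase peaks. It was found in 29 of the 351 mitotic neighbors (8.26%, 5.60 to 11.7), against 8.30% of all mitotic peaks. The peaks within 250 bp of each other held it in 22.6% (interphase) and 18.4% (mitotic) of cases, and windows 20 kb to either side of the interphase peaks of the pairs in 3.43%. Halfway between the peaks of the 349 pairs at least 376 bp apart, windows of 173 bp held the RBPJ motif in 10 cases (2.87%, 1.38 to 5.21) and a CTCF match in 7 (2.01%, 0.810 to 4.09). For CTCF the intervals of both ends thus lay above that of the sequence between them, whereas for the RBPJ motif the intervals of both ends overlapped that of the windows between. The 59 mitotic neighbors that had another interphase center within 250 bp held the RBPJ motif in 5 cases (8.47%, 2.81 to 18.7), and the 292 without one in 8 (2.74%, 1.19 to 5.33).

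**Figure D5:**
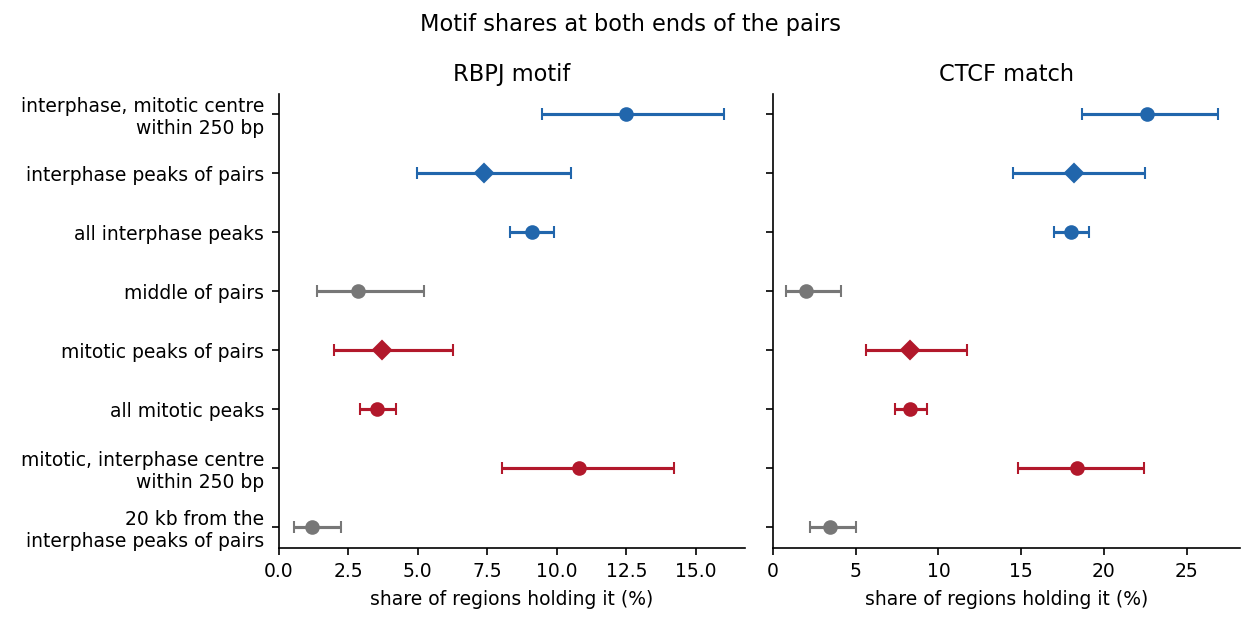
The share of regions (%) with the RBPJ motif (left) and with a CTCF match (right) is plotted with exact 95% intervals, in blue for interphase peaks, red for mitotic peaks and gray for windows outside peaks, with diamonds for both ends of the pairs. The intervals of the diamonds include the shares of their own lists (7.39% beside 9.09% and 3.70% beside 3.53% for the RBPJ motif), and the diamonds lie below the peaks with a center of the other list within 250 bp.

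The motifs were also counted per pair. The RBPJ motif stood in both peaks of 2 pairs, in the interphase peak only of 26 and in the mitotic peak only of 15. A CTCF match stood in both peaks of 12 pairs, in the interphase peak only of 57 and in the mitotic peak only of 18. An RBPJ motif at one end and a CTCF match at the other occurred in 11 pairs, 6 with the RBPJ motif in the interphase peak and 5 with it in the mitotic peak. Neither motif was found at either end of 267 pairs (70.4%). By class, CTCF matches stood in 10 of 132 interphase peaks in promoters (7.58%, 3.69 to 13.5), in 23 of 90 in introns (25.6%, 16.9 to 35.8) and in 15 of 66 in intergenic DNA (22.7%, 13.3 to 34.7). The shares by class over all interphase peaks were not computed, so these values describe the members only. The 12 pairs with a match at both ends included those at Serpina3n, Cabp1, Ctif, Krt8 and Ppil1. At Cabp1, a gene for a calcium-binding protein, both peaks lay in an intron 1528 bp apart, and the mitotic one was the stronger for its list (score 16.7, rank 58 of 3227).

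The pairs with the RBPJ motif at one end and CTCF at the other covered different settings. At Tlcd1 and Gnb2 the interphase peak held the RBPJ motif and the mitotic peak a CTCF match, both in promoters, 1299 and 503 bp apart. At Amn, a gene for an endocytic receptor subunit, both peaks were intronic, 3345 bp apart. The pair upstream of Ctnnb1, which encodes beta-catenin, had the RBPJ motif in the interphase peak at position -9955 and the CTCF match in the mitotic peak at -13937 from the start. The reverse order was found at Kcnc1, at Ltbp4 and in the intron of Dlgap1. Ddx54 held both motifs in its mitotic peak and CTCF in the interphase one, and Bloc1s1 had CTCF in the promoter peak and the RBPJ motif in the mitotic peak 2589 bp away. The mitotic peaks at Tlcd1, Dlgap1, Ddx54 and Bloc1s1 lay within 250 bp of another interphase center.

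At Hes1, 4 interphase and 2 mitotic peaks were called within 10 kb of the gene. The strongest interphase peak, at -3 from the start with a score of 26.6 (rank 66 of 5206), had the mitotic peak at -26 (score 13.1, rank 298 of 3227) 23 bp from its center and is not a member of a pair. It covered the motif shown above for the mitotic peak. The pair with the motif in both peaks was formed by that mitotic peak and a second interphase peak at position 1047, chr16:30066387-30066559, with a score of 15.2. The 1073 bp between them thus separated the shared site at the start from an additional interphase site inside the gene, which carries the motif ending in G and is classed as a promoter by the start of a non-coding Hes1 transcript. The other pair joined an interphase peak at -4780 (score 16.5) to the mitotic peak at -2256 (score 10.9), which lay 110 bp from another interphase peak at -2146 and held no motif. In both Hes1 pairs the mitotic peak accordingly had an interphase counterpart, and the interphase peak of the pair was the one without a mitotic peak in place.

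At Ank1 the interphase peak at -675 (score 13.5) and the mitotic peak in the intron at position 2852 (score 12.4) were 3819 bp apart. These positions are from different starts of the gene. The mitotic peak was closer to a second interphase peak, 2108 bp away. At Brpf1 and Tlcd1 the mitotic promoter peak, at -123 and -202 from its closest start, had another interphase center at 0 and 26 bp. For Tlcd1 that start lies inside the gene. At Rras the interphase peak at position 1121 and the mitotic peak at -228 were each other's closest, 1349 bp apart. At Gnb2 they were 503 bp apart, at positions 89 and -88 from different starts of the gene.

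Notch pathway genes were the closest protein-coding genes of 5 pairs, from a list of 73 genes, which is 1.32% of the interphase peaks of pairs against 0.922% of all interphase peaks. Besides Hes1 these were Neurl1a, Mib2 and Aph1a. Mib2 encodes a ubiquitin ligase of Notch ligands, and its interphase peak at -385 in the promoter (score 11.4) had a mitotic neighbor in the gene 4224 bp away (score 10.2). Aph1a encodes a subunit of gamma-secretase, the protease that releases the intracellular part of Notch. Its interphase peak at -135 (score 10.6) had a mitotic neighbor 2458 bp away in an intron of the next gene, BC028528. The pair assigned to Neurl1a, a ubiquitin ligase gene, lay over 100 kb from its start within an intron of Sh3pxd2a, with positions of 109131 and 110514 bp.

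Genes of the pluripotency list (54 genes) were closest to 8 pairs, 2.11% of the interphase peaks of pairs against 1.63% of all. Klf5, a Kruppel-like transcription factor gene, had an interphase peak in the promoter at -312 (score 15.2) and a mitotic peak in its exon at 2904 (score 13.8, rank 196). Zscan10, a zinc finger gene of pluripotent cells, had the interphase peak at -1 (score 15.6) and the mitotic peak in an intron at 1047 (score 10.2). Both pairs thus had the interphase peak at the promoter and the mitotic peak inside the gene. At Tbx3, a T-box factor gene, the peaks lay at -465 and 1179 from a start inside the gene, and the mitotic peak was 126 bp from another interphase center. Nr5a2, an orphan nuclear receptor gene, had both peaks in an intron, 4914 bp apart, with the RBPJ motif in the interphase peak. At Fgf4, the growth factor gene, 1 pair lay upstream with the interphase peak at -9863, and a second joined an interphase peak at 5947 to a mitotic peak in the exon at 3410. Lefty2, which encodes a Nodal antagonist, had both peaks in intergenic DNA 1974 bp apart.

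Genes of developmental signaling (106 genes) were closest to at least 1 peak of 9 pairs, and to the interphase peak in 2.11% of pairs against 1.27% of all interphase peaks. In 6 of these pairs both peaks lay more than 10 kb from the start, at Smad7 and Smad6 (inhibitory Smads), Spry2 (an antagonist of receptor tyrosine kinase signaling), Fgfr1, Fzd7 and Wnt11. The strongest of them in interphase was at Spry2, at 35724 bp from the start (score 19.0, rank 287), with a mitotic neighbor 1503 bp away that had another interphase center at 59 bp. Developmental transcription factors (233 genes) were closest to 7 pairs, 1.85% against 1.56%, among them Foxd2, Foxh1, Six5 and Sox13. Ribosomal protein genes, histone genes and genes of chromatin regulators and CTCF partners were closest to 2 pairs each, 0.528% of pairs against 0.672%, 0.538% and 0.557% of all interphase peaks. Both ribosomal pairs were at Rps19, one at its promoter with centers 425 bp apart, where the mitotic peak had another interphase center at 19 bp, and one at its transcript end with centers 481 bp apart. The cohesin gene Smc1a had an interphase peak at its promoter (score 17.3) with a mitotic neighbor 358 bp away, 180 bp downstream of the start of the divergent gene Ribc1. Arid1a, which encodes a subunit of a chromatin remodeling complex, had the interphase peak at -16 and the mitotic neighbor at -769, itself 164 bp from another interphase center. The histone pairs were at Hist1h4a and at Hist1h2bj, the latter with centers 462 bp apart. The counts of these lists are small, and none was tested.

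The promoters of different genes held the peaks of 19 of the 65 pairs with both peaks in promoters (29.2%, 18.6 to 41.8), by the gene whose transcript start placed each peak in its class. Several were divergent or neighboring pairs of genes. Wrap53 and Trp53, the gene for p53, start next to each other. The interphase peak lay at -87 from a transcript start of Wrap53, and the mitotic peak, 984 bp away, at -10 from one of Trp53. Those starts are not both the outermost starts of the genes. At Hist1h4a and Hist1h1a, which encode histones H4 and H1, the peaks lay at positions 82 and 62 of each gene, 2582 bp apart. The mitotic peak at Hist1h1a had another interphase center 160 bp away. Map4k1 and Eif3k had their peaks 256 bp apart, Akt1s1 and Tbc1d17 313 bp apart, and Ncapd2 and Mrpl51 470 bp apart. Ncapd2 encodes a condensin subunit, and its promoter held the interphase peak, with a CTCF match, while the mitotic peak had another interphase center at 71 bp. The mitotic peak in the Phf23 promoter was the neighbor of interphase peaks in the promoters of Gabarap and of Dvl2, 4631 and 4875 bp to either side, and lay 28 bp from yet another interphase center.

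By the authors' score, which ranks peaks within a list and was not compared between lists, the interphase peaks of the pairs had a median of 12.2 (upper quartile 14.4) against 11.8 in the list. The mitotic neighbors had a median of 10.9, equal to that of the list, and 139 of the 379 pairs (36.7%) had a mitotic peak at the lowest score of the list, against 42.6% of all mitotic peaks. The pairs high in both lists were led by one on chromosome 17, closest to Scaf8 but lying at the promoter and in the intron of Pisd-ps2. Its interphase peak scored 30.0 (rank 41 of 5206) and its mitotic peak, chr17:3082281-3082483, scored 74.3 (rank 3 of 3227), 2075 bp apart. Pisd-ps2 is named as a pseudogene and annotated as a processed transcript, and how reads of near-identical copies were placed there was not tested, so the pair is uncertain. Next came pairs at 6430527G18Rik, Ccdc85c and Ier2, the last an immediate early gene with the interphase peak at position 31 (score 22.4) and the mitotic peak at -2582 (score 14.6). Eef2, Calr, Lasp1, Klf9 and Bcl11b were also among the 15 strongest, as were pairs closest to Smok4a, with mitotic scores of 28.4 and 34.2. How reads were placed was not tested for these pairs either. Eef2 encodes translation elongation factor 2 and Calr the chaperone calreticulin. Calr had both peaks in promoters, 865 bp apart, and Bcl11b, a zinc finger gene, had the interphase peak at -2962 and the mitotic peak at -903.

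Base composition was compared at both ends of the pairs and in the DNA between them. The median GC content was 56.1% in the interphase peaks of the pairs, the same as in the whole list, 54.2% in the mitotic neighbors (53.7% in their list), 50.3% halfway between and 47.4% at 20 kb from the interphase peaks. The interphase peak had the higher GC content in 261 of the 379 pairs (68.9%, 63.9 to 73.5). The ratio of observed to expected CpG had medians of 0.386 (interphase), 0.345 (mitotic), 0.301 (between) and 0.202 (20 kb away). How base composition affected amplification or calling was not tested.

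Over chromosomes, many pairs lay where mitotic peaks were dense. This follows in part from selecting pairs within 5 kb of a mitotic peak, and it did not hold on every chromosome. On chromosome 7 the share of pairs, 7.39%, was nearer to its share of all interphase peaks (7.20%) than of all mitotic peaks (5.11%). Chromosome 8 held 65 pairs (17.2%), with 9.95% of all interphase and 16.3% of all mitotic peaks, and 12.5% of its interphase peaks belonged to a pair. Mitotic peaks numbered 4.00 per Mb there, against 2.61 on chromosome 12, 1.97 on chromosome 6 and 0.144 on chromosome X, which held 3 pairs. Chromosomes 4, 6, 8 and 12 together held 163 pairs (43.0%), with 29.2% of the interphase and 43.0% of the mitotic peaks. Without these 4 chromosomes, left out after the data were seen, 216 pairs remained, and the density of mitotic centers still fell with distance, from 22.2 per 1000 interphase peaks and kb at 250 to 500 bp to 3.98 at 2 to 5 kb. The copy number of these chromosomes in the cells used was not tested.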

How the data were processed

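Chromatin immunoprecipitation of RBPJ was followed by sequencing in asynchronous and nocodazole-arrested F9 cells. The authors aligned reads to mm9 with Bowtie 0.12.7, kept unique alignments, which removes reads that align to more than 1 place, and called peaks against matching input with HOMER at a fixed width per list and above a read-density minimum. The deposited lists (1 per population, replicate 1) give positions and the authors' score, whose unit is not given in the sources used here, so it served only to rank peaks within a list. Sequencing depth is unknown from these files. The members and the gene lists were chosen with earlier results of these data known.

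Centers (the mean of both ends) were paired with the closest mitotic center at over 250 bp and at most 5 kb, ties going to the lower coordinate. Centers were classed in the order promoter, transcript end (100 bp before to 1 kb after it), exon, intron, distal promoter (10 kb before to 1 kb after a start), intergenic, using all 95495 transcripts of GENCODE M1, and assigned to the closest start of a protein-coding transcript. Sequence came from the mm9 (NCBIM37) genome, because the RefSeq promoter table is of another build. Motifs were searched on both strands with Python 3.11.15, pandas 2.3.3, numpy 2.4.6, scipy 1.17.1 and pysam 0.24.0. Shares carry exact Clopper-Pearson 95% intervals. The steps were tested on simulated data and found 104 of 104 planted pairs, 200 of 200 RBPJ motifs, 200 of 200 CTCF sites and 11 of 11 classes. No test was run, since each population has 1 list.

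Pairs are named by rule: the 15 strongest by the worse of both ranks, the 5 smallest and 5 largest distances, pairs by motif (both peaks, or RBPJ at one and CTCF at the other), pairs closest to listed genes, mitotic peaks with 3 or more neighbors, and pairs in promoters of different genes, with at most 15 named each. Alternatives covered the score minimum, sex chromosomes, distance bounds, shared mitotic peaks, annotation and motif definitions.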

Additional observations from a re-analysis of the deposited data

How the results depend on the processing

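No paired analysis was possible because the results come from no test and only replicate 1 of each population has a peak list, and for the same reason no replicate could be left out. Of 107 values recomputed under the alternatives, 83 stayed within the interval of the value reported (for the number of pairs, within 1.5 times) and 24 did not. None of the values moved when chromosomes X, Y and unplaced sequence were left out, when each mitotic peak entered once, with protein-coding transcripts only or with any base of the peak annotated. With peaks at or above the median score of each list, 168 pairs were left. In those with the same closest gene, the interphase peak was the nearer one to its start in 47.1% rather than 53.7%, which changes which side of 50% the share falls on. The bounds set the size of the set, with 227 pairs and a median distance of 837 bp up to 2 kb, 630 pairs and 3578.5 bp up to 10 kb, and 1932 bp with a lower bound of 500 bp. The share in the same class was 54.3% with that lower bound, 68.7% up to 2 kb and 54.3% up to 10 kb, where the share with the same closest gene was 86.2%. Leaving out chromosomes 4, 6, 8 and 12, chosen after seeing the data, left 216 pairs and moved no share. A promoter reaching from 2 kb before a start to 500 bp after it held 43.0% of the interphase peaks and 37.9% of the mitotic neighbors, with 66.2% in the same class. With the starts of all annotated genes 87.1% of pairs had the same closest gene. The RBPJ motif shares were 31.7% (interphase) and 28.2% (mitotic) with TTCCCA, and 7.98% in the mitotic neighbors with TTTCCCAC or TTTCCCAG. CTCF matches without a mismatch were found in 5.54% and 2.85%, against 6.67% and 2.82% of the lists. With at most 1 mismatch in 500 bp around the centers, matches were found in 24.8% and 14.2%, against 23.2% and 14.1%. The core of the gel-shift fragment with at most 2 mismatches was found in 11.3% of the interphase peaks, against 11.1% of the list. In the mitotic neighbors it was found in 8.26%, against 6.04%. The RBPJ motif in 500 bp around the centers was found in 10.3% and 4.84%, against 12.1% and 6.60%. With 1 list per population, a peak missed at this depth and a site not occupied cannot be told apart, so a mitotic peak beside an interphase peak does not show that occupancy moved.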
